A study of Arabidopsis thaliana with 6 samples.

Results

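Seedlings of Arabidopsis thaliana with the genotype bin4-2 were set against wild-type (WT) seedlings by the RNA levels on 4 expression arrays, 2 of bin4-2 and 2 of WT, out of 6 arrays in the series. The other 2 arrays came from seedlings with the genotype bin4-1, a second allele, and they are used below only to ask which changes belong to bin4-2 alone. The sources used here do not give the age of the seedlings, how they were grown or the molecular nature of either allele. They also do not say whether the 2 arrays of a genotype used separately grown plants, so each p-value rests on array-to-array spread that could be purely technical. Levels are log2 of the deposited RMA intensity, and a change is the mean of bin4-2 minus the mean of WT on that scale, given with the standard error (SE) of the limma fit. A gene is said to have risen or fallen when its adjusted p was below 0.05.

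BIN4 is a plant partner of topoisomerase VI, an enzyme that passes one DNA double strand through another and so untangles replicated chromosomes. Arabidopsis plants that lack the complex are dwarfs whose cells stop early in endoreduplication, the repeated copying of the genome without division by which leaf, hypocotyl and trichome cells grow large. The series title asks whether topoisomerase VI also acts as a barrier that keeps heterochromatin from spreading into islands of active chromatin.

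The RNA levels of bin4-2 seedlings departed from WT across the whole range measured. Of 13356 genes, 6377 (47.7%) passed the threshold, 2822 of them higher (21.1%) and 3555 lower (26.6%), and the median change was -0.09. The band between -0.5 and 0.5 held 9096 genes, of which 806 had risen, 1312 had fallen and 6978 had not passed. The tails were unequal. At a change of 3 or more stood 109 genes, all called, against 7 genes below -3. Between 2 and 3 there were 178 genes and between -3 and -2 there were 104, and from 1 to 2 and from -2 to -1 there were 664 and 765. At least 2-fold higher were 951 genes (7.12%) and at least 2-fold lower 876 genes (6.56%). The strongest rises came from genes that were dim in WT: the 109 genes with a change of 3 or more had a median level of 7.47 in bin4-2 and 3.83 in WT. The 7 strongest falls had a median level of 3.69 in bin4-2 and 7.06 in WT. The median level of all genes was 4.34 in bin4-2 and 4.36 in WT, and the 25th percentile was 3.07 in bin4-2 and 3.18 in WT. No background level was set, so the size of a change that ends or starts near these low values is uncertain.

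**Figure D1:**
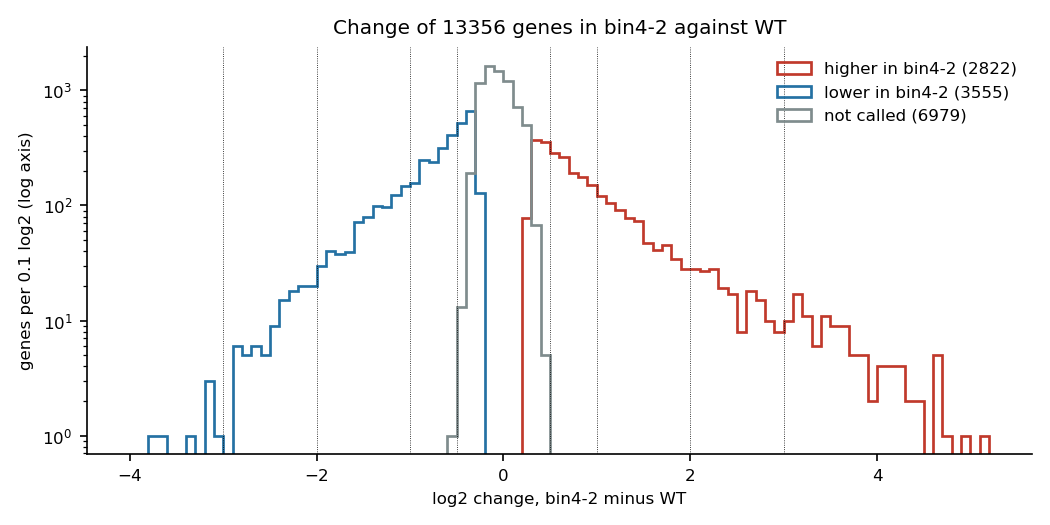
Number of genes (log axis) in bins of 0.1 along the log2 change of bin4-2 minus WT, drawn separately for genes called higher, called lower and not called, with dotted lines at the band edges. The right tail reaches 5.11 and the left tail -3.80, and genes that were not called lie close to 0.

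The 2 bin4-2 arrays correlated at 0.996 across probe sets and the WT arrays at 0.995, while pairs of 1 bin4-2 and 1 WT array correlated at 0.910 to 0.917. The number of arrays limits the precision, and the smallest change that passed was 0.26 in size. On 71.6% of the genes the 2 groups of arrays did not overlap, so a lack of overlap at a single gene is common here. Markers of green leaf tissue were bright in both groups: the summed intensity of PRK, RCA, SBPASE and PORB was 2849 and 2936 on the bin4-2 arrays, against 9983 and 10208 on the WT arrays. TRY, the 1 trichome marker found by its symbol, read 3.66 and 3.41 in bin4-2, against 4.44 on both WT arrays. The root-hair markers found by symbol, EXPA7 and EXPA18, summed to 38.9 and 38.5 in bin4-2, against 79.1 and 84.9 in WT. The seed marker M17 stood between 2.37 and 2.39 in bin4-2 and between 2.44 and 2.46 in WT, among the dimmest values. No marker of the root, senescent-leaf or inflorescence lists was found by its symbol. Markers were looked up by symbol only, so those that the annotation names by locus can have been missed in any list. In whole seedlings, fewer cells of a type and less RNA per cell cannot be told apart.

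BIN4 itself read 2.92 and 3.05 on the bin4-2 arrays, against 3.78 and 3.93 on the WT arrays. All 4 values are dim, and both bin4-2 values lie below both WT values, a change of -0.87 ± 0.11 (SE, limma adjusted p = 3.18e-05). Of 6 topoisomerase genes listed by name, 4 fell and 0 rose, with a median of -0.51. TOPII, the topoisomerase II of dividing cells, read 5.02 and 4.93 in bin4-2, against 6.17 and 6.08 in WT (-1.16 ± 0.10, adjusted p = 2.02e-06). TOP3A, which dissolves recombination intermediates, changed by -0.53 (adjusted p = 0.0123), and the meiotic gene ATSPO11-1 stood at -0.02 (adjusted p = 0.886).

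**Figure D2:**
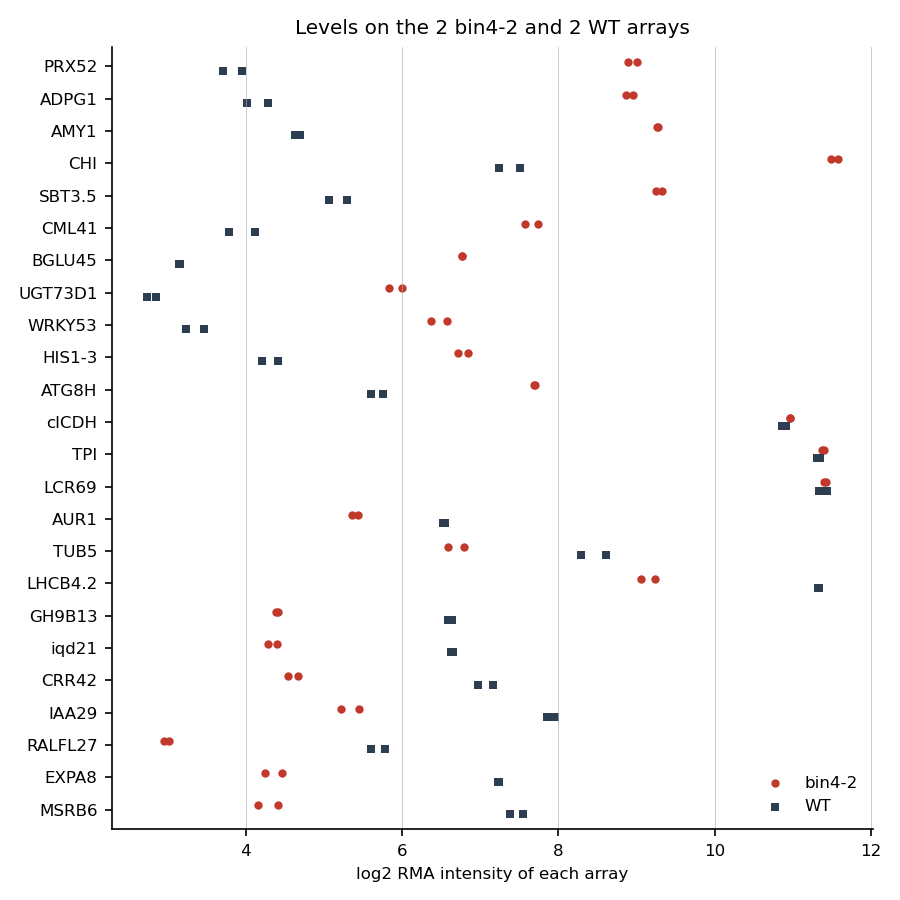
log2 RMA intensity of 24 genes on each bin4-2 array (circles) and each WT array (squares). From PRX52 to ATG8H the bin4-2 arrays lie to the right, cICDH, TPI and LCR69 nearly coincide, and from AUR1 to MSRB6 the bin4-2 arrays lie to the left.

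The genes with the largest changes had both bin4-2 arrays far outside the WT arrays. PRX52, a class III peroxidase of the cell wall, read 9.00 and 8.89 in bin4-2, against 3.71 and 3.95 in WT, a change of 5.11 ± 0.11 (SE, limma adjusted p = 2.08e-10). ADPG1, a polygalacturonase of cell separation, read 8.86 and 8.95 in bin4-2, against 4.01 and 4.28 in WT. Both genes stood well above the middle of the range in bin4-2 and in its dim part in WT. AMY1, an alpha-amylase, read 9.27 on both bin4-2 arrays, against 4.62 and 4.70 in WT (4.61 ± 0.10, adjusted p = 2.08e-10). CHI, a chitinase gene, read 11.58 and 11.49 in bin4-2, against 7.24 and 7.51 in WT (4.16 ± 0.12, adjusted p = 3.44e-10), so its bin4-2 values are among the brightest of any gene described here. PDF1.4, a defensin-like gene, changed by 4.12 and SBT3.5, a subtilisin-like protease, by 4.11. Of the 20 largest rises, 14 carry only a locus name in the annotation used, led by AT5G52760 (4.95), AT1G57630 (4.64) and AT1G26390 (4.64).

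The largest falls were smaller. MSRB6, which repairs oxidised methionine, read 4.15 and 4.41 in bin4-2, against 7.38 and 7.54 in WT (-3.18 ± 0.12, SE, limma adjusted p = 2.83e-09). EXPA8, an expansin, read 4.25 and 4.47 in bin4-2, against 7.24 and 7.23 in WT (-2.87 ± 0.11, adjusted p = 2.24e-09). In both genes the bin4-2 arrays sat near the median of all genes and the WT arrays far above it. RALFL27, a RALF-like signalling peptide, read 2.96 and 3.02 in bin4-2, against 5.79 and 5.60 in WT, and its bin4-2 values lie below the 25th percentile of all genes. LrgB, a glycolate transporter of the chloroplast envelope, changed by -2.72 and the nitrate transporter NPF6.4 (AT3G21670) by -3.38. Of the 20 largest falls, AT1G66100 (-3.80) and AT1G73600 (-3.63) led the 15 genes other than NPF6.4 that the annotation names by locus only.

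Members of 71 gene classes, 969 genes in all, were then placed along the range. The classes and their members were drawn up from gene symbols and from descriptive names in the annotation. Each holds only genes with a named probe set. Of the 13356 genes, 11809 carry only a locus name, and family members among them can be missing. Counts therefore describe the listed members and not whole families. Each class is described by its counts beside the 21.1% of all genes that rose and the 26.6% that fell, and by its median beside -0.09. Class medians spread from -1.84 to 1.10. Counts of 0 to 2 genes in a class often moved by 1 gene when a single array was left out. Larger moves are given with their class in some cases only. Among those not given are moves by more than 1 gene in how many plastid-encoded genes fell. The same holds for the GH9 endoglucanases and the serine carboxypeptidase-like genes that fell. A count printed without such a move is therefore not shown to be stable.

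**Figure D3:**
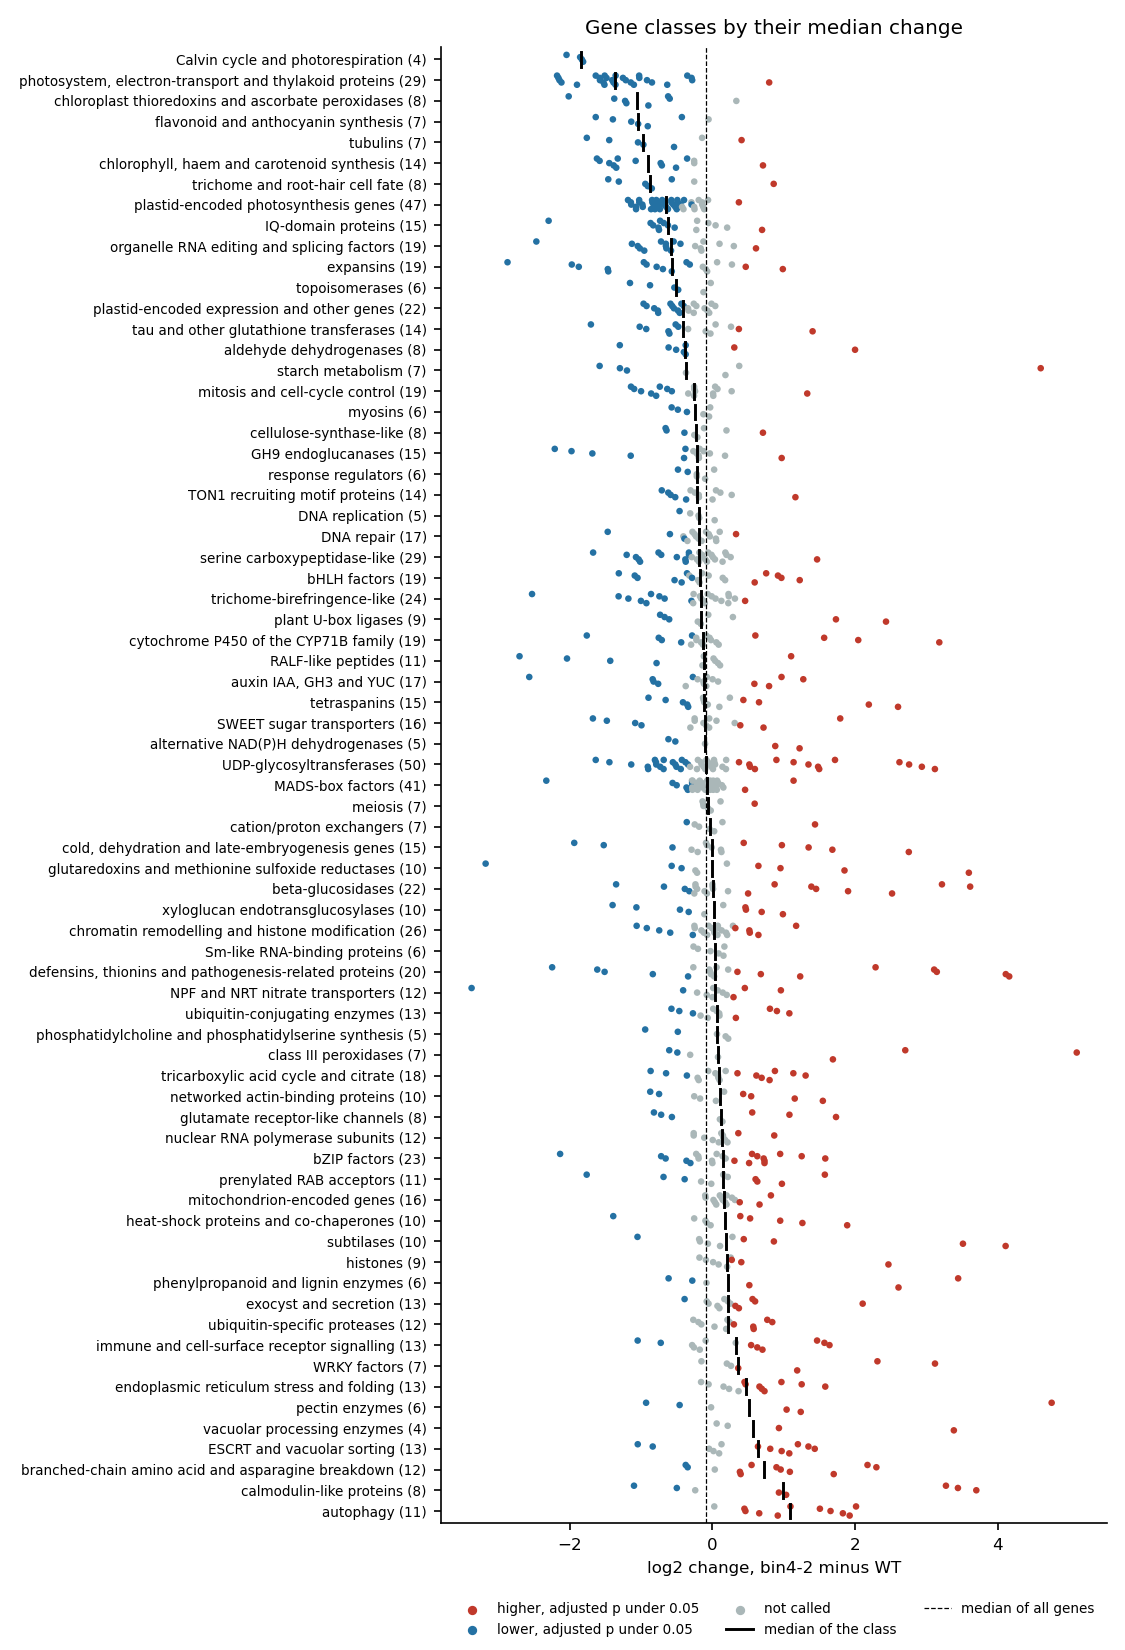
log2 change of bin4-2 minus WT for each member (points) of 71 gene classes ordered by their median (black bar), with the number of members in parentheses and the median of all genes as a dashed line. Chloroplast, flavonoid, tubulin and epidermis classes stand at the top with the lowest medians, and autophagy and calmodulin-like genes at the bottom with medians near 1.

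Nuclear genes of the chloroplast formed the low end of the range. All 4 genes of the Calvin cycle and photorespiration fell: PRK (phosphoribulokinase), HPR (hydroxypyruvate reductase), RCA (Rubisco activase) and SBPASE (sedoheptulose bisphosphatase), by between 1.81 and 2.05. Of 29 genes for photosystem, electron-transport and thylakoid proteins, 28 fell and 1 rose, with a median of -1.36. LHCB4.2, a minor antenna protein of photosystem II, read 9.05 and 9.24 in bin4-2, against 11.32 and 11.33 in WT (-2.18 ± 0.11, SE, limma adjusted p = 1.6e-08). NdhL, a subunit of the NADH dehydrogenase-like complex of the thylakoid, changed by -2.16, and CaS, the thylakoid calcium-sensing protein, by -2.14. The one that rose was TAAC, an ATP carrier of the thylakoid membrane (0.80, adjusted p = 0.00012). The fall nearest to 0 was that of ATPC2 (-0.28), the minor isoform of the ATP synthase gamma subunit. The leaf markers given above, of which PRK, RCA and SBPASE are themselves members here, fell as well, and whether the amount of green tissue contributes was not tested.

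The pigment pathway was mostly lower too. Of 14 genes for chlorophyll, haem and carotenoid synthesis, 11 fell and 1 rose (median -0.90). CHLM, the magnesium protoporphyrin methyltransferase, changed by -1.62, CHLI2, a subunit of magnesium chelatase, by -1.58, and HEME2, a uroporphyrinogen decarboxylase, by -1.45. Of the first enzyme of the pathway, the glutamyl-tRNA reductase gene HEMA2 read 6.07 and 5.81 in bin4-2, against 5.19 and 5.27 in WT, a rise of 0.71 ± 0.12 (SE, limma adjusted p = 0.000321), while HEMA3 stood at -0.25 without passing.

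Chloroplast redox and RNA-processing genes were also mostly lower. Of 8 genes for chloroplast thioredoxins and ascorbate peroxidases, 7 fell and 0 rose (median -1.05), led by TAPX, the thylakoid ascorbate peroxidase (-2.02), and TRXF2, a thioredoxin that activates Calvin-cycle enzymes (-1.38). The exception, TY1, stood at 0.34 (limma adjusted p = 0.0871). Of 19 organelle RNA editing and splicing factors and related proteins, 12 fell and 1 rose (median -0.58). CRR42, needed for the NADH dehydrogenase-like complex, read 4.54 and 4.67 in bin4-2, against 7.16 and 6.98 in WT (-2.47 ± 0.13, SE, adjusted p = 2.84e-08). CFM3A, a chloroplast splicing factor, changed by -1.13 and LPA66, an editing factor, by -1.05. The riser was MEF8S, a mitochondrial editing factor (0.61, adjusted p = 0.00152).

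Genes encoded in the organelles moved less. Of 47 plastid-encoded photosynthesis genes, 35 fell and 1 rose with a median of -0.65, and of 22 other plastid genes 12 fell and 0 rose with a median of -0.42. The largest falls were those of ndhJ (-1.18), psbC (-1.14) and psbB (-1.14), and of the ribosomal protein gene rps14 (-0.96) and the polymerase gene rpoC2 (-0.92). psbJ read 8.92 and 8.87 in bin4-2, against 8.75 and 8.29 in WT, and passed by a small margin (0.37, limma adjusted p = 0.0485). It was not called without WT replicate 2 or without any single array of either mutant. Plastid transcripts shifted together between arrays of 1 group: the median plastid photosynthesis gene was higher on one array than on the other by 0.25 in bin4-2 and by 0.20 in WT, less than the median fall, and its part in the falls was not tested. Of 16 mitochondrion-encoded genes, 0 fell and 3 rose: cox1 (0.82), nad4L (0.66) and ccb382 (0.38).

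Among 7 starch genes, 3 fell and 1 rose (median -0.37). SBE2.2, a starch-branching enzyme, changed by -1.58, DPE1, which rearranges short glucans, by -1.30, and the phosphoglucan water dikinase gene AT5G26570 by -1.20, all 3 called, against the rise of AMY1 given above. APL4, a subunit of the enzyme that makes ADP-glucose, stood at 0.18 without passing.

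Cell-wall loosening genes fell more often than they rose. Of 19 expansins, which loosen walls as cells enlarge, 12 fell and 2 rose (median -0.57). Next to EXPA8 the largest falls were those of EXPB3 (-1.97) and EXPA15 (-1.87), and the risers were the expansin-like genes EXLA1 and EXLA3. EXLA1 read 9.33 and 9.28 in bin4-2, against 8.38 and 8.25 in WT (0.99 ± 0.10, SE, limma adjusted p = 8.14e-06). EXLA3 (0.47) was not called without WT replicate 2 or without either bin4-2 array. Of 15 endoglucanases of family GH9, 6 fell and 1 rose. GH9B13 read 4.38 and 4.42 in bin4-2, against 6.58 and 6.64 in WT (-2.21 ± 0.10, adjusted p = 9.96e-09), GH9B8 changed by -1.98 and GH9C2 by -1.68, while GH9B17 rose by 0.97. The groups did not overlap for either GH9B13 or EXLA1, as was so for 71.6% of all genes.

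Xyloglucan endotransglucosylases, which cut and rejoin wall xyloglucan, split evenly, with 4 of 10 genes higher and 4 lower. XTH18 changed by 0.99, EXGT-A3 by 0.69 and XTH20 by 0.47, and XTH32 by -1.40, XTH16 by -1.07 and XTH33 by -0.45. Without WT replicate 2 or without bin4-2 replicate 2, 2 genes of the family fell. Of 6 pectin-modifying genes 3 rose and 2 fell, with ADPG1 far ahead of the pectin methylesterase genes ATPMEPCRB (1.24) and PMEPCRF (1.04). Of 24 trichome-birefringence-like genes, whose products acetylate wall sugars, 9 fell and 1 rose, led by TBL45, which read 4.63 and 4.75 in bin4-2, against 7.19 and 7.24 in WT. Without WT replicate 2, 3 genes of this family rose.

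Of 6 listed phenylpropanoid and lignin genes 3 rose and 2 fell (median 0.22). Among 7 listed class III peroxidases 3 rose and 2 fell (median 0.08). CCOAMT, a caffeoyl-CoA methyltransferase, read 6.93 and 7.02 in bin4-2, against 3.51 and 3.56 in WT (3.45 ± 0.10, SE, limma adjusted p = 5.23e-10). CCR2, a cinnamoyl-CoA reductase, read 6.21 and 5.96 in bin4-2, against 3.26 and 3.69 in WT (2.61 ± 0.15, adjusted p = 4.65e-08). Both were dim in WT, whereas HCT, an enzyme upstream of them that was already bright, read 8.97 and 9.00 in bin4-2, against 8.48 and 8.45 in WT (0.52, adjusted p = 0.000962). The falls were those of ALDH2C4, an aldehyde dehydrogenase that forms ferulic acid (-0.61), and the laccase gene LAC16 (-0.28). Among the peroxidases, Prx37 changed by 2.71 and PRX71 (AT5G64120) by 1.69, beside PRX52, and PRXR1 by -0.60.

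Cytoskeleton classes differed in how often their genes fell. Of 7 tubulins, which build microtubules, 5 fell and 1 rose (median -0.97). TUB5 read 6.59 and 6.79 in bin4-2, against 8.61 and 8.29 in WT (-1.76 ± 0.13, SE, limma adjusted p = 5.13e-07), TUB1 changed by -1.45 and TUB6 by -1.04. TUA1, an alpha-tubulin known from pollen, rose by 0.41 (adjusted p = 0.0151), a call lost without WT replicate 1 or bin4-2 replicate 2, and TUB9 stood at -0.14 (adjusted p = 0.277). Of 15 IQ-domain proteins, calmodulin-binding proteins of which several bind microtubules, 9 fell and 1 rose (median -0.62). iqd21 read 4.28 and 4.40 in bin4-2, against 6.63 and 6.65 in WT (-2.30 ± 0.10, adjusted p = 8.82e-09), the next falls were those of IQD28 (-0.87) and IQD30 (-0.83), and IQD23 rose by 0.70. The bin4-2 arrays of iqd21 lie far below its WT arrays. Of 14 TON1 recruiting motif proteins, 5 fell and 1 rose (median -0.22), and of 6 myosins, the motors of actin filaments, 3 fell and 0 rose (median -0.24). Of 10 networked actin-binding proteins, 4 rose and 2 fell (median 0.11). Without bin4-2 replicate 2, 1 myosin fell and 2 networked genes rose.

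Genes of mitosis leaned downward, while genes of replication, repair and meiosis mostly did not pass. Of 19 genes of mitosis and cell-cycle control, 8 fell and 1 rose (median -0.26). AUR1, an Aurora kinase, read 5.44 and 5.36 in bin4-2, against 6.56 and 6.52 in WT (-1.14 ± 0.10, SE, limma adjusted p = 1.95e-06). AUR2, its close relative, read 4.97 and 4.95 in bin4-2, against 5.97 and 6.15 in WT (-1.10 ± 0.13, adjusted p = 2.09e-05), and the spindle-checkpoint gene BUB3.1 fell too. SKP2A, an F-box protein that targets cell-cycle regulators, read 7.06 and 7.21 in bin4-2, against 5.73 and 5.87 in WT, a rise of 1.33 ± 0.11 (adjusted p = 9.4e-07). The anaphase-promoting complex gene CDC27a stood at 0.01. All 4 of the called genes just given had arrays of bin4-2 and WT that did not overlap, as did 71.6% of all genes.

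Of 5 replication genes, PRL, which encodes the helicase subunit MCM7, fell by 0.46 and the other 4 did not pass. Without bin4-2 replicate 1, 0 replication genes fell, and without WT replicate 1, 3 fell. Of 17 DNA repair genes, 3 fell, 1 rose and 13 did not pass. DRT100 (-1.47), ATNTH1, a base-excision glycosylase (-0.60), and RAD9, a checkpoint clamp subunit (-0.39), fell, and ATLIG4, the ligase of end joining, rose by 0.33 (limma adjusted p = 0.0285), a call lost without WT replicate 1 or bin4-2 replicate 1. Without WT replicate 2 the count of repair genes that fell was 5. Of 7 meiosis genes, ATMND1 rose by 0.59 and the others did not pass.

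Among 9 listed histone genes 3 rose and 0 fell. HIS1-3, a linker histone induced by drought, read 6.85 and 6.71 in bin4-2, against 4.21 and 4.41 in WT (2.47 ± 0.11, SE, limma adjusted p = 8.83e-09). HTR12, the centromeric histone H3, read 5.48 and 4.99 in bin4-2, against 4.73 and 4.93 in WT (0.41, adjusted p = 0.0441), and its lower bin4-2 array barely clears the WT arrays. HTB11, an H2B gene, changed by 0.27 (adjusted p = 0.0434). The count of histone genes that rose was 1, HIS1-3, without WT replicate 1, without bin4-2 replicate 1 and without either bin4-1 array. Of 26 genes of chromatin remodelling and histone modification, 5 fell and 5 rose (median 0.03). The falls were led by the high-mobility-group gene 3xHMG-box2 (-1.06), ULT1, a trithorax-group factor (-0.92), and AGO7, which acts with small RNAs (-0.75). The rises were led by the SNF2-family gene chr31 (1.18), the histone demethylase gene PKDM7D (0.65) and ATRX, a remodeller linked to histone H3 deposition (0.53). Of 12 nuclear RNA polymerase subunits, 2 rose, NRPC1 of polymerase III (0.87) and NRPB6A (0.36), and of 6 Sm-like RNA-binding proteins 0 passed by the limma test, and 1 had an unadjusted p under 0.05.

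Pseudogenes, of which 989 have a probe set, lay mostly at the dim end, with a median level of 2.68 in bin4-2 and 2.80 in WT. Of these, 112 fell and 20 rose, 13.3% called in all against 47.7% of all genes, and the median was -0.12. Without bin4-2 replicate 2, 45 pseudogenes fell. At such levels a missing call says little about the RNA itself.

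Defence genes spread to both ends of the range. Of 20 listed defensins, thionins and pathogenesis-related proteins, 8 rose and 5 fell (median 0.04). Beside CHI and PDF1.4, the chitinase gene ChiC read 9.04 and 8.99 in bin4-2, against 5.82 and 5.91 in WT (3.15 ± 0.10, SE, limma adjusted p = 7.29e-10). The thionin THI2.2 read 3.86 and 3.88 in bin4-2, against 6.17 and 6.08 in WT (-2.25 ± 0.12, adjusted p = 2.47e-08). LCR68, a defensin-like gene, changed by -1.61 and ATLP-1, a thaumatin-like gene, by -1.51, and their bright relative LCR69 read 11.39 and 11.42 in bin4-2, against 11.33 and 11.43 in WT. The same class thus held genes far above WT, genes far below it and a gene whose groups overlapped.

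Signalling genes of defence rose where they passed in most cases. Of 8 listed calmodulin-like calcium sensors 5 rose and 2 fell (median 0.98). CML41 read 7.74 and 7.58 in bin4-2, against 3.79 and 4.12 in WT (3.70 ± 0.13, SE, limma adjusted p = 1.27e-09), CML38 changed by 3.44 and CML37 by 3.28, while CML42 changed by -1.10 and CML30 by -0.50. Of 7 WRKY factors 4 rose and 0 fell. WRKY53, a regulator of leaf senescence and defence, read 6.58 and 6.37 in bin4-2, against 3.24 and 3.46 in WT (3.12 ± 0.12, adjusted p = 2.25e-09), and WRKY6 changed by 2.32. Of 13 genes of immune and cell-surface receptor signalling 6 rose and 2 fell: BIK1, a kinase downstream of pattern receptors, changed by 1.64, the chaperone partner SGT1A by 1.57 and SAG101 by 1.47, and PSY1R, a peptide receptor, by -1.05 and THE1, a wall-sensing kinase, by -0.72. Of 11 RALF-like peptides, ligands of such wall-sensing kinases, 4 fell and 1 rose. RALFL24 changed by -2.04 and RALFL34 by -1.43, and RALFL18 by 1.10.

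Proteases of the secretory path and vacuole also included single large rises. Of 10 subtilases 4 rose and 1 fell. SBT3.3, linked to immune priming, read 7.09 and 7.11 in bin4-2, against 3.22 and 3.95 in WT, and SBT3.5 read 9.33 and 9.25 in bin4-2, against 5.06 and 5.29 in WT. The WT arrays of SBT3.3 were further apart than those of most genes named here, and its SE was 0.18. All 4 vacuolar processing enzymes were measured: ALPHA-VPE rose by 3.39 ± 0.11 and GAMMA-VPE by 0.93, and BETA-VPE (0.22) and DELTA-VPE (0.06) did not pass. Of 29 serine carboxypeptidase-like genes, by contrast, 12 fell and 1 rose, from SCPL34 at -1.67 to scpl16 at 1.47.

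Families of secondary metabolism fanned out around 0. The 50 UDP-glycosyltransferases, which attach sugars to hormones and secondary metabolites, held 14 genes that rose, 18 that fell and 18 that did not pass, with a median of -0.09 equal to that of all genes. UGT73D1 read 5.83 and 5.99 in bin4-2, against 2.85 and 2.73 in WT (3.12 ± 0.11, SE, limma adjusted p = 1.08e-09). UGT76B1, which conjugates immune regulators, read 8.53 and 8.54 in bin4-2, against 5.55 and 5.64 in WT (2.94 ± 0.10, adjusted p = 1.06e-09), and UGT87A2 changed by 2.76. At the other end stood the flavonol rhamnosyltransferase UGT78D1, which read 5.35 and 5.60 in bin4-2, against 7.08 and 7.13 in WT (-1.64 ± 0.11, adjusted p = 2.83e-07), UGT71C1 (-1.44) and the flavonol glucosyltransferase UGT78D2 (-1.14). Of 7 genes of flavonoid and anthocyanin synthesis, which include both UGT78D genes, 6 fell and 0 rose (median -1.04). CHIL, a helper of chalcone synthase, changed by -1.40, and BAN, the anthocyanidin reductase of the seed coat, stood at -0.05.

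The 22 beta-glucosidases, which release sugars from stored conjugates, held 8 genes that rose and 4 that fell. BGLU45, one of the genes for monolignol glucosidases, read 6.77 on both bin4-2 arrays, against 3.14 and 3.17 in WT (3.62 ± 0.10, SE, limma adjusted p = 3.14e-10). BGLU25 changed by 3.22 and BGLU46 by 2.52, and BGLU33 by -1.35. Of 19 cytochrome P450 genes of family CYP71B, 4 rose and 5 fell, from CYP71B23 at 3.18 to CYP71B34 at -1.76. Of 14 glutathione transferases, 7 fell and 2 rose (median -0.41), from GSTU20 at -1.70 to GSTU25 at 1.41. Among 10 glutaredoxins and methionine sulfoxide reductases, MSRB6 was the largest fall and GRX480, a glutaredoxin that binds TGA factors, the largest rise: it read 7.35 and 7.21 in bin4-2, against 3.52 and 3.83 in WT (3.60 ± 0.13, adjusted p = 1.29e-09).

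Autophagy genes had the highest class median. Of 11 autophagy genes, which enclose cell contents for breakdown in the vacuole, 10 rose and 0 fell (median 1.10). ATG8H read 7.71 and 7.69 in bin4-2, against 5.76 and 5.60 in WT (2.02 ± 0.11, SE, limma adjusted p = 3.48e-08). APG8A read 8.61 and 8.68 in bin4-2, against 6.70 and 6.73 in WT (1.93 ± 0.10, adjusted p = 2.56e-08), and ATG8B changed by 1.83. ATG8C, of the same ubiquitin-like family, read 7.51 and 7.59 in bin4-2, against 7.61 and 7.44 in WT (0.03, adjusted p = 0.856), with overlapping groups. Of 13 genes of ESCRT complexes and vacuolar sorting, which carry membrane proteins to the vacuole, 7 rose and 2 fell (median 0.64): VPS20.1 changed by 1.44, VPS60.1 by 1.35 and VPS60.2 by 1.20, and VPS2.2 by -1.05 and VPS9B by -0.84. The ubiquitin classes stood nearer to 0. Of 13 ubiquitin-conjugating enzymes 4 rose and 3 fell (median 0.06), of 12 ubiquitin-specific proteases 5 rose and 0 fell (median 0.23), and of 9 plant U-box ligases 2 rose and 3 fell (median -0.16). PUB24, a U-box ligase that dampens immune responses, changed by 2.44 and PUB25 by -0.73, a call lost without bin4-2 replicate 1.

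Of 12 genes for the breakdown of branched-chain amino acids, lysine and asparagine, 9 rose and 2 fell (median 0.72). The lysine-ketoglutarate reductase gene LKR/SDH (AT4G33150) changed by 2.30 and DELTA-OAT, the ornithine aminotransferase, by 1.70. ASPGB1, an asparaginase, read 7.85 and 8.05 in bin4-2, against 5.61 and 5.93 in WT (2.18 ± 0.13, SE, limma adjusted p = 7.4e-08), whereas the asparaginase ASPGA1 changed by -0.35. Without bin4-2 replicate 2, 0 genes of the class fell, and without bin4-2 replicate 1 or either WT array, 1 fell. D2HGDH, which feeds the electron-transfer flavoprotein, stood at 0.03. Of 18 genes of the tricarboxylic acid cycle and citrate metabolism, 7 rose and 3 fell, and without WT replicate 2, 5 fell. ICL, isocitrate lyase, changed by 1.31 and the isocitrate dehydrogenase subunit IDH-VI by 1.14. The ATP-citrate lyase subunits split, with ACLB-1 at -0.87, ACLA-2 at -0.65, ACLA-1 at -0.36 and ACLA-3 at 0.88, each called.

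Of 13 genes of endoplasmic-reticulum stress and folding, 8 rose and 0 fell (median 0.47). The membrane-anchored regulators BZIP28 and BZIP60 led them: BZIP28 read 7.18 and 7.29 in bin4-2, against 5.63 and 5.67 in WT (1.58 ± 0.10, SE, limma adjusted p = 1.6e-07). BZIP60 read 7.95 and 7.89 in bin4-2, against 6.62 and 6.72 in WT (1.25 ± 0.10, adjusted p = 9.62e-07). ATERDJ3B, a co-chaperone, changed by 0.97 and OS9 stood at -0.05. Of 10 heat-shock proteins and co-chaperones 5 rose and 1 fell, from Hsp70-2 at 1.89 and Fes1A at 1.26 to Fes1B at -1.39.

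Growth, hormone and transport families held a few strong members among many that did not pass. Of 17 auxin genes, 5 fell and 4 rose. IAA29, an Aux/IAA repressor, read 5.22 and 5.46 in bin4-2, against 7.85 and 7.96 in WT (-2.57 ± 0.11, SE, limma adjusted p = 8.82e-09), and WES1, which conjugates auxin to amino acids, rose by 1.28. Of 41 MADS-box factors, 32 did not pass, 7 fell and 2 rose. AGL87 read 4.58 and 4.61 in bin4-2, against 6.90 and 6.94 in WT (-2.33 ± 0.10, adjusted p = 5.98e-09), and AGL18 changed by 1.14. Without WT replicate 2 or bin4-2 replicate 2, 3 MADS-box genes fell, and without either bin4-1 array, 4 fell. The median level of the class was 2.94 in bin4-2 and 3.03 in WT, below the 25th percentile of all genes in both groups.

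Of 16 SWEET sugar transporters 4 fell and 3 rose: SWEET17, a fructose carrier of the vacuole, changed by -1.68, SWEET11 by -1.48 and SWEET1 by -1.08, and SAG29 by 1.79. Of 15 cold, dehydration and late-embryogenesis genes 5 rose and 3 fell, from LEA4-5 at 2.76 and LTI30 at 1.68 to COR15A at -1.52 and COR15B at -1.94. Of 8 genes of trichome and root-hair cell fate, 6 fell and 1 rose (median -0.88). EXPA18 changed by -1.46, ATMYC1, which promotes trichome fate, by -1.31 and GIS, a zinc-finger gene of trichome initiation, by -0.94. GEM rose by 0.86. Of 19 listed bHLH factors 7 fell and 5 rose. Among them were SPCH, which starts the stomatal lineage (-1.09), and UPB1, which sets root meristem size (1.23). Of 15 tetraspanins 4 rose and 5 fell, with TET8 at 2.60 and TET9 at 2.19 against TET7 at -0.90, and without either bin4-2 array 2 fell.

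At the centre of the range stood bright genes with nearly equal levels. The 10 brightest genes with a change between -0.1 and 0.1 included TPI, a triosephosphate isomerase, which read 11.37 and 11.39 in bin4-2, against 11.31 and 11.35 in WT. Its change of 0.05 had a 95% interval from -0.17 to 0.27. For cICDH, the cytosolic isocitrate dehydrogenase, the interval of the change ran from -0.15 to 0.31, and for the dehydrin HIRD11 (AT1G54410) from -0.23 to 0.21.

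Genes changed in bin4-2 alone are those that passed against WT in bin4-2 and did not pass in bin4-1. Both comparisons use the same WT arrays, and the list was chosen by these calls, so its counts describe the choice. In bin4-1 47.0% of the genes passed against WT. There were 798 such genes (5.97%), 216 higher (1.62%) and 582 lower (4.36%). Their changes were small, with a median size of 0.366 in bin4-2 and 0.222 in bin4-1, against 0.743 in bin4-2 for genes that passed in both alleles. Of the 798, 1 fell by at least 2-fold, QQS, and 0 rose by that much. In bin4-1 304 of them had an adjusted p below 0.1, and 781 had a change of the same sign as in bin4-2. AT3G23930 shows how narrow the line can be, with a limma adjusted p of 0.0412 for its change of -0.36 in bin4-2, and of 0.0501 for its -0.35 in bin4-1, and so does the histone chaperone gene ASF1B, at -0.27 in bin4-2 and -0.26 in bin4-1. On the other side, TBL42 passed in bin4-2 at an adjusted p of 0.0499.

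The direct comparison of bin4-2 with bin4-1 does not use the WT means, although the WT arrays enter the estimate of spread, and 33 of 13356 genes (0.247%) passed it. Without either WT array 51 genes passed. Among the 798 genes, 6 passed and 792 did not, and the smallest difference between the alleles that passed anywhere was 0.58 in size. A missing call here does not show that the alleles act alike. At an unadjusted p below 0.05, 130 of the 798 differed.

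QQS, an orphan gene that influences starch content, was the strongest of the 6. It read 3.44 and 3.56 in bin4-2, 4.85 and 4.76 in bin4-1 and 4.66 and 4.99 in WT. The bin4-2 arrays stand below all others, and the bin4-1 arrays lie within the WT range. Against WT it changed by -1.33 ± 0.13 in bin4-2 (limma adjusted p = 3.52e-06), while the bin4-1 arrays gave a change of -0.02 with an adjusted p of 0.926. The difference between the alleles was -1.31, with a 95% interval from -1.59 to -1.04 (adjusted p = 0.0017). QQS kept its call under each left-out array.

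AT5G54370 read 5.40 and 5.60 in bin4-2, 6.39 and 6.40 in bin4-1 and 6.25 and 6.20 in WT, a difference between the alleles of -0.90 (limma adjusted p = 0.00529). AT5G62330 read 3.40 and 3.56 in bin4-2, 4.34 and 4.32 in bin4-1 and 4.12 and 4.33 in WT (-0.85, adjusted p = 0.0096). AT5G17820 read 7.35 and 7.41 in bin4-2, 8.06 and 8.07 in bin4-1 and 8.03 and 8.02 in WT (-0.69, adjusted p = 0.0171). In each of these 3 genes both bin4-2 arrays are lower than all 4 other arrays. GSTU26, a tau-class glutathione transferase, read 5.56 and 5.71 in bin4-2, 6.31 and 6.32 in bin4-1 and 6.13 and 6.37 in WT (-0.68, adjusted p = 0.044). AT5G23760 was the 1 gene higher in bin4-2: it read 6.37 and 6.47 in bin4-2, 5.83 and 5.77 in bin4-1 and 5.79 and 5.64 in WT (0.61, adjusted p = 0.0463). Both of these calls were close to the threshold.

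**Figure D4:**
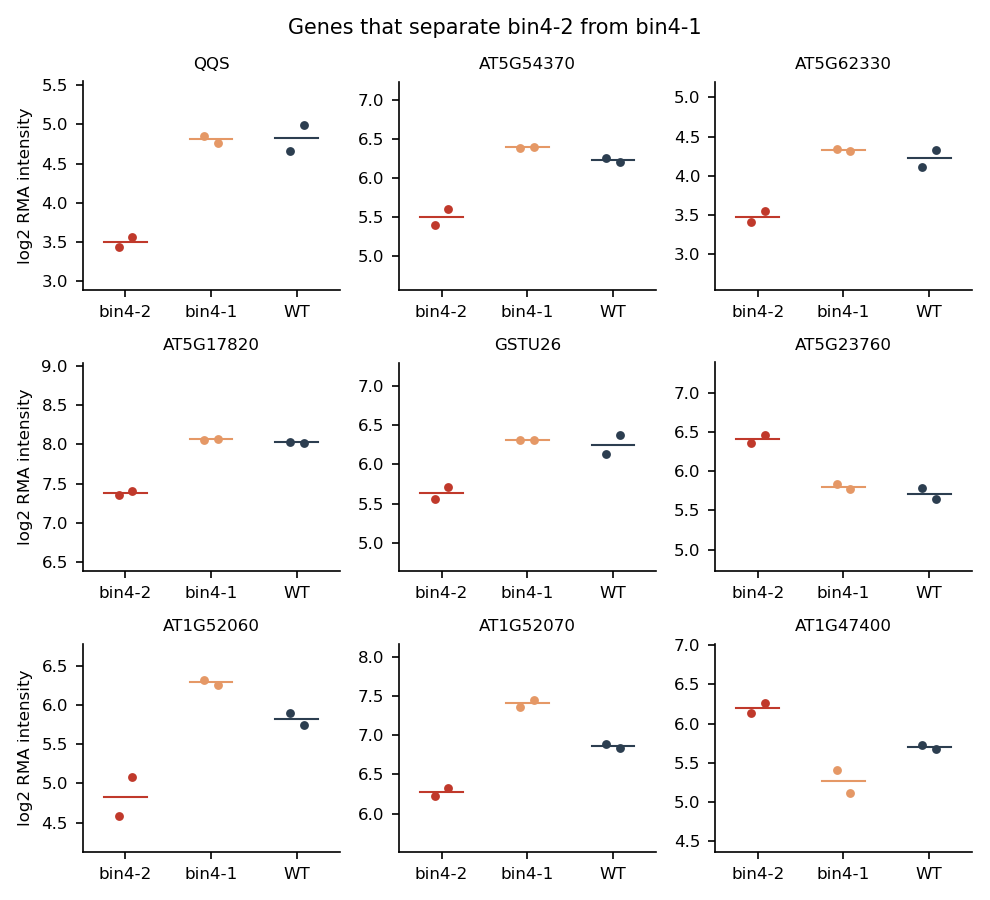
log2 RMA intensity on each array (points, with the group mean as a line) in bin4-2, bin4-1 and WT, on axes of equal height, for the 6 genes changed in bin4-2 alone that also differ between the alleles and for 3 genes called in opposite directions. In the upper 6 panels the bin4-1 and WT arrays lie close together, and in the lower 3 panels bin4-2 and bin4-1 lie on either side of WT.

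Another 3 genes, chosen after their values were seen, passed against WT in opposite directions in the alleles. AT1G52060 read 4.59 and 5.08 in bin4-2, 6.32 and 6.26 in bin4-1 and 5.90 and 5.75 in WT. AT1G52070, with the next locus number, read 6.23 and 6.33 in bin4-2, 7.36 and 7.45 in bin4-1 and 6.88 and 6.84 in WT. In both, bin4-2 was below and bin4-1 above WT, and the differences between the alleles were -1.46 (limma adjusted p = 0.00175) and -1.13 (adjusted p = 0.00158). AT1G52050, the locus before them, is itself among the genes changed in bin4-2 alone, at -0.67 in bin4-2 and 0.06 in bin4-1, but its difference between the alleles did not pass (-0.73, adjusted p = 0.0615). AT1G47400 went the other way, at 6.14 and 6.26 in bin4-2, 5.41 and 5.12 in bin4-1 and 5.72 and 5.68 in WT (0.94, adjusted p = 0.00758).

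For the other 792 genes the values of the 2 alleles are given side by side. LEA18, a late-embryogenesis gene, had the largest rise of them: it read 4.68 and 4.41 in bin4-2, 3.98 and 3.68 in bin4-1 and 3.60 and 3.53 in WT, a change of 0.98 in bin4-2 and 0.27 in bin4-1, and the difference of 0.71 did not pass (limma adjusted p = 0.0586). The bin4-2 arrays of LEA18 are above all 4 other arrays, and the 95% interval of the difference, not adjusted for the number of genes, ran from 0.42 to 1.00. The next rises were those of AT2G29590 (0.63 in bin4-2 and 0.24 in bin4-1) and AT4G03410 (0.62 in bin4-2 and 0.28 in bin4-1). The largest falls were those of AT1G66800 (-0.80 in bin4-2 and -0.24 in bin4-1), AT3G06460 (-0.80 in bin4-2 and -0.36 in bin4-1) and AT4G29690 (-0.78 in bin4-2 and -0.28 in bin4-1). AT5G60530 stood at -0.77 in bin4-2 and 0.05 in bin4-1, with a difference that narrowly missed the threshold (adjusted p = 0.0599).

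Of the 969 genes in the classes, 52 were among the 798, beside 5.97% of all genes. Of the 41 MADS-box genes, a dim class, 4 were in the list: AGL80, AGL79, AGL103 and AGL61. Other members, chosen here after their values were seen, were the root-hair expansin EXPA7 (-0.57 in bin4-2 and -0.21 in bin4-1), TOP3A (-0.53 in bin4-2 and -0.27 in bin4-1), the pollen-development factor AMS (-0.36 in bin4-2 and 0.05 in bin4-1) and SWEET14 (0.39 in bin4-2 and -0.04 in bin4-1). EXPA7 read 4.13 and 4.36 in bin4-2, 4.62 and 4.60 in bin4-1 and 4.72 and 4.91 in WT, so the bin4-1 arrays lie between the other groups. None of the differences between alleles in these 4 genes passed, with limma adjusted p values from 0.36 to 0.827. Membership of the list also depended on single arrays: without bin4-2 replicate 1 it held 432 genes, and without bin4-2 replicate 2 it held 478, of which 273 and 324 were among the 798. Without bin4-1 replicate 1 or 2 it held 1414 and 1242 genes, and in these settings 2 to 4 genes of the list differed between the alleles.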

How the data were processed

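Affymetrix ATH1 arrays measured RNA of 2 bin4-2, 2 bin4-1 and 2 WT samples. The authors deposited linear RMA intensity values, which the submitters' processing notes credit to RMA with no version. The values were turned to log2 with no further normalization. Of 22810 probe sets, 64 controls, 503 naming several genes and 8730 with no gene name were left out. The other 13513, of which 13436 matched RefSeq TAIR10.1, gave 13356 genes; for 146 genes with several probe sets the one with the highest mean was kept.

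limma 3.58.1 in R 4.3.3 fitted 3 group means to all 6 arrays (lmFit, eBayes), and every adjusted p is from this fit with Benjamini-Hochberg adjustment over all genes at a threshold of 0.05. The script was tested on simulated data. Tables were made with pandas 2.3.3 and numpy 2.4.6 under Python 3.11.15, and figures with matplotlib 3.10.9.

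Genes were named by rule. The rule took BIN4 and listed topoisomerase genes, the 20 largest rises and falls, and the 10 brightest genes near 0. It also took up to 3 largest rises and falls of a class with the member closest to 0. Of the genes of bin4-2 alone, it took those that differ between the alleles or have the 12 largest changes. From all genes taken by the rule the text names a part. The marker genes, and the genes at the edge of the threshold, stand outside the rule. The members and lists were chosen with earlier results of these data known, and the class lists were redrawn once because name patterns had caught unrelated genes. The arrays' replicate numbers did not pair across genotypes, as their deviations correlated at -0.003, 0.077 and -0.045.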

Additional observations from a re-analysis of the deposited data

Results flagged for a closer look

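In 12 of the genes named above, the direct comparison of bin4-2 with bin4-1 passed. Of these calls, 3 held under every setting in which the gene was tested, those of QQS, AT1G52060 and AT1G52070. The replicate block lost 3 of the 12, and leaving out any single array of bin4-2 or bin4-1 lost 8 or 9. Lower in bin4-2 than in bin4-1 were QQS (-1.31), AT1G52060 (-1.46), AT1G52070 (-1.13), AT5G54370 (-0.90), AT5G62330 (-0.85), AT5G17820 (-0.69) and GSTU26 (-0.68). Higher in bin4-2 than in bin4-1 were AT1G47400 (0.94), CML38 (0.82), AT1G73600 (0.79), GSTU20 (0.69) and AT5G23760 (0.61). CML38 had risen in both alleles, by 3.44 in bin4-2 and 2.62 in bin4-1, and AT1G73600 had fallen in both, to a change of -3.63 in bin4-2 and -4.42 in bin4-1. GSTU20 stood at -1.70 in bin4-2 and -2.39 in bin4-1.

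The 8730 probe sets with no gene name, which enter no comparison above, were read because they carried signal as well. In a fit over all probe sets other than controls, 2365 of them were higher in bin4-2 (27.1%) and 2873 lower (32.9%). Of these, 865 and 945 changed by at least 2-fold, and the median change of the 8730 was -0.07. Both shares were larger than among the 13356 genes of the main fit, 21.1% higher and 26.6% lower. At least 2-fold higher or lower there were 951 (7.12%) and 876 genes (6.56%).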

How the results depend on the processing

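The counts of genes higher and lower stayed within 1.5 times under the intensity trend, repeated quantile normalization, median centring, the 4 arrays of bin4-2 and WT, the dimmer probe set and each left-out array. Among genes with a midpoint of at least log2 5, 3940 passed, 1986 higher and 1954 lower, 279 were in the list for bin4-2 alone and 56 differed between the alleles; fewer genes were tested. Over all probe sets 12031 passed, 5392 higher and 6639 lower. More were tested, and the share that passed differed as well. Of the probe sets with no gene name, 27.1% were higher and 32.9% lower, against 21.1% and 26.6% of the 13356 genes. With an intensity trend 127 genes differed between the alleles, 16 of them in the list for bin4-2 alone; the cause was not tested. Leaving out single arrays gave 432 to 1414 genes in that list, 1 to 10 that also differed between the alleles and 7 to 51 that differed between the alleles in all. Of 220 called genes named above, 175 kept their call under every setting that tested them, and of 12 called between the alleles, 3 did; BIN4, whose 4 values lie below a floor of log2 4, stood at 0 with that floor. With the replicate number as a block, 6335 genes passed, 784 in bin4-2 alone, and 25 genes differed between the alleles. The arrays share only a number. Promoter motifs were not run. With 2 arrays a group, no change smaller than 0.26 in size passed in the main fit, and some larger changes did not pass either.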
